A study of Homo sapiens with 7 samples.

Results

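The values below are those of 10 genes that canonical Wnt signaling is widely known to switch on, most of which feed back on the pathway: SP5, LEF1, AXIN2, NKD1, DKK1, DKK4, NOTUM, RNF43, ZNRF3 and LGR5. They were taken by name from the 22670 gene entries of each RNA-seq library, and each of the 10 names had 1 entry. The libraries came from SEES-3, a human embryonic stem cell (hESC) line that stably expressed the reverse Tet-transactivator and was kept on iMatrix-511 without feeder cells. In the JMJD3c-hESCs, doxycycline (Dox) at 1 µg/ml switches on the catalytic domain of JMJD3 (KDM6B), an enzyme that removes methyl groups from lysine 27 of histone H3, with an HA tag and a nuclear localization signal, from a piggyBac construct with a Tet-responsive element. Their RNA was sequenced before Dox (Day 0) and after 1, 2, 3 and 4 days of it. The JMJD3c mut-hESCs carry the same construct with a point mutation that removes the catalytic activity, and were sequenced without Dox and at Day 4 of Dox. Both are stable lines from puromycin selection, so line and mutation cannot be told apart, and each of the 7 conditions had 1 library. With no replicates, no p-value is given and no difference could be set against the spread between cultures.

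In canonical Wnt signaling, ligand bound to Frizzled and LRP receptors stops the destruction complex from degrading beta-catenin, which then enters the nucleus and acts on genes bound by TCF and LEF factors. Several genes switched on in this way restrain the pathway in turn: outside the cell (DKK1, DKK4, NOTUM), at the receptors (RNF43, ZNRF3) or in the cytoplasm (AXIN2, NKD1). In the embryo, Wnt signaling is known for its part in forming the primitive streak, and in hESCs its activation is known to lead towards mesoderm and endoderm.

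RefSeq promoter windows, from 250 bases before to 50 bases after an annotated start site (GRCh38.p14), were at hand for 4 of the 10 genes, SP5, DKK1, LEF1 and RNF43. They were searched on both strands for CTTTGA, a core of the sequence that TCF and LEF factors are known to bind, and its complement TCAAAG, which cannot overlap each other. The motif was chosen after other spellings had been tried on these windows. SP5 and DKK1 held matches, and the 250 bases before their start sites (plus strand) are shown because both genes were listed at 0 before Dox and were above 0 in later libraries. Capitals mark the matches. The SP5 sequence is chr2:170715087-170715336 and the DKK1 sequence is chr10:52314031-52314280.
SP5: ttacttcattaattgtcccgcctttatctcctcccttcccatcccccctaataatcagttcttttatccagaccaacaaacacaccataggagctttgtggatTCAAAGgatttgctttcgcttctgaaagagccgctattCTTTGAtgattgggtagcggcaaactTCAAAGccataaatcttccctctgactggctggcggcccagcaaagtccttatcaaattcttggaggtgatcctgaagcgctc
DKK1: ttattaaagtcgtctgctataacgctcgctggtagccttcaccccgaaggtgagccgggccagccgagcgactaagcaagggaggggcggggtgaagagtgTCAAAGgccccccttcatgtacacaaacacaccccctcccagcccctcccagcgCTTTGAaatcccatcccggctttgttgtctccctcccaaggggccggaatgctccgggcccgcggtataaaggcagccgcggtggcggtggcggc

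SP5 held 3 matches, which begin at bases -147, -109 and -83 from the start site, and 1 of them extends to CTTTGAT. DKK1 held 2, beginning at bases -149 and -95. Of the 35116 RefSeq windows of this length, 12.9% held at least 1 match, 1.29% at least 2 and 0.0997% at least 3, and CTTTGAT was in 2.62%. Because the motif was chosen on the windows of these genes, the shares do not measure how unusual their matches are. The LEF1 window and both RNF43 windows held none. The LEF1 window belongs to a start site 2631 bases inside the gene, and 1 of the RNF43 windows to a start site 14813 bases inside it. A match is a description of the letters and not a bound site.

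Expression was given as FPKM, a read count scaled by exon length and by the mapped reads of the library, with Cufflinks bounds of a 95% interval, which hold the uncertainty of reading 1 library and nothing of how cultures vary. The files hold no read counts, and the steps between low FPKM values put the mapped reads at 1760000 (Day 0, the shallowest library) to 3660000 (untreated mutant line). KDM6B, whose entry can also take up reads from the transgene, was at 3.45 FPKM at Day 0, at 158 to 282 FPKM from Day 1 to Day 4, and at 2.40 and 454 FPKM in the mutant line without and with Dox. All 10 markers of human pluripotent stem cells exceeded 1 FPKM in every library, with sums from 2095 FPKM at Day 4 to 2922 FPKM at Day 0. Each was lower at Day 4 than at Day 0, with SOX2 at 65.9 against 135.6 FPKM and DNMT3B at 191 against 404 FPKM. In the mutant line without and with Dox, SOX2 was at 99.6 and 74.6 FPKM and DNMT3B at 369 and 308 FPKM. The 5 trophoblast markers summed to 0 FPKM at Day 0, 4.57 FPKM at Day 4, and 1.47 and 0.382 FPKM in the mutant line without and with Dox. At Day 4, GATA3 was at 2.68 FPKM and TFAP2A at 1.89 FPKM, while GCM1 and CGA were listed at 0 in every library.

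At Day 4 of Dox, SP5 and DKK4 were upregulated relative to Day 0, ZNRF3 was downregulated, and the other 7 genes did not pass the cutoffs. The cutoffs were a ratio over 2 for upregulated genes and under 0.5 for downregulated genes, and the higher of the 2 libraries had to exceed 4 FPKM. Of the 10247 genes above 4 FPKM in either library, 5.87% were called upregulated and 7.56% downregulated. Of the 10 genes, 4 were above 4 FPKM in either library (SP5, DKK4, AXIN2 and ZNRF3), and the other 6 could not have been called. The calls were thus 2 upregulated and 1 downregulated among 4 genes, too few to set a share of them against the background. Where the Cufflinks intervals of both libraries also had to be apart, the same 3 genes were called, against a background of 2.52% upregulated and 2.74% downregulated. Over the 10 genes, the median log2 fold change (pseudocount of 1 FPKM) was 0.81, and that of all genes above 4 FPKM was -0.06. The 2 sets are unlike, since the 10 genes were not filtered by FPKM and 4 of them, listed at 0 at Day 0, could not fall. Of the 10 genes, 6 were higher and 4 lower at Day 4, so the median does not describe a shift of the whole set. In bulk RNA, more cells that express a gene and more RNA per cell cannot be told apart.

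SP5, a zinc finger transcription factor and a direct Wnt target (ENSG00000204335, chromosome 2 of hg19, 171571861 to 171574588, plus strand), was listed at 0 FPKM at Day 0. Days 1 to 4 of Dox gave 0.819, 6.78, 11.4 and 28.2 FPKM in turn. The mutant line gave 0.149 FPKM without Dox and was listed at 0 with Dox. Each day of Dox was higher than the one before. The intervals of consecutive days were apart from Day 1 to Day 2 and from Day 3 to Day 4 (8.29 to 14.4 against 21.8 to 34.1 FPKM), and they overlapped from Day 2 to Day 3. To the nearest read on its longest transcript, the values came to 4, 40, 72 and 126 reads at Days 1 to 4 and 1 read in the untreated mutant line. A count of 0 allows up to 3 reads, which at Day 0 would be 0.929 FPKM, above the Day 1 value. SP5 at Day 4 was 30.4 times that floor of 3 reads in the Day 0 library, without the counting error of Day 4. Its log2 fold change at Day 4 was 4.87, and at Day 4 it stood above 85.4% of the entries on chromosomes.

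LEF1, a DNA-binding partner of beta-catenin that is itself a Wnt target (ENSG00000138795, chromosome 4, 108968701 to 109090112, minus strand), was low in every library. Day 0 gave 0.437 FPKM, and Days 1 to 4 gave 1.89, 1.44, 1.35 and 2.97 FPKM. The mutant line had 1.38 FPKM without Dox and 1.21 FPKM with Dox. Day 4 was the highest library and Day 0 the lowest, but the Day 4 interval (1.41 to 6.30 FPKM) overlapped that of Day 0 (0 to 3.50 FPKM). An antisense gene, LEF1-AS1, overlaps exons of LEF1 in the GENCODE annotation and has no entry of its own in the files.

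**Figure D1:**
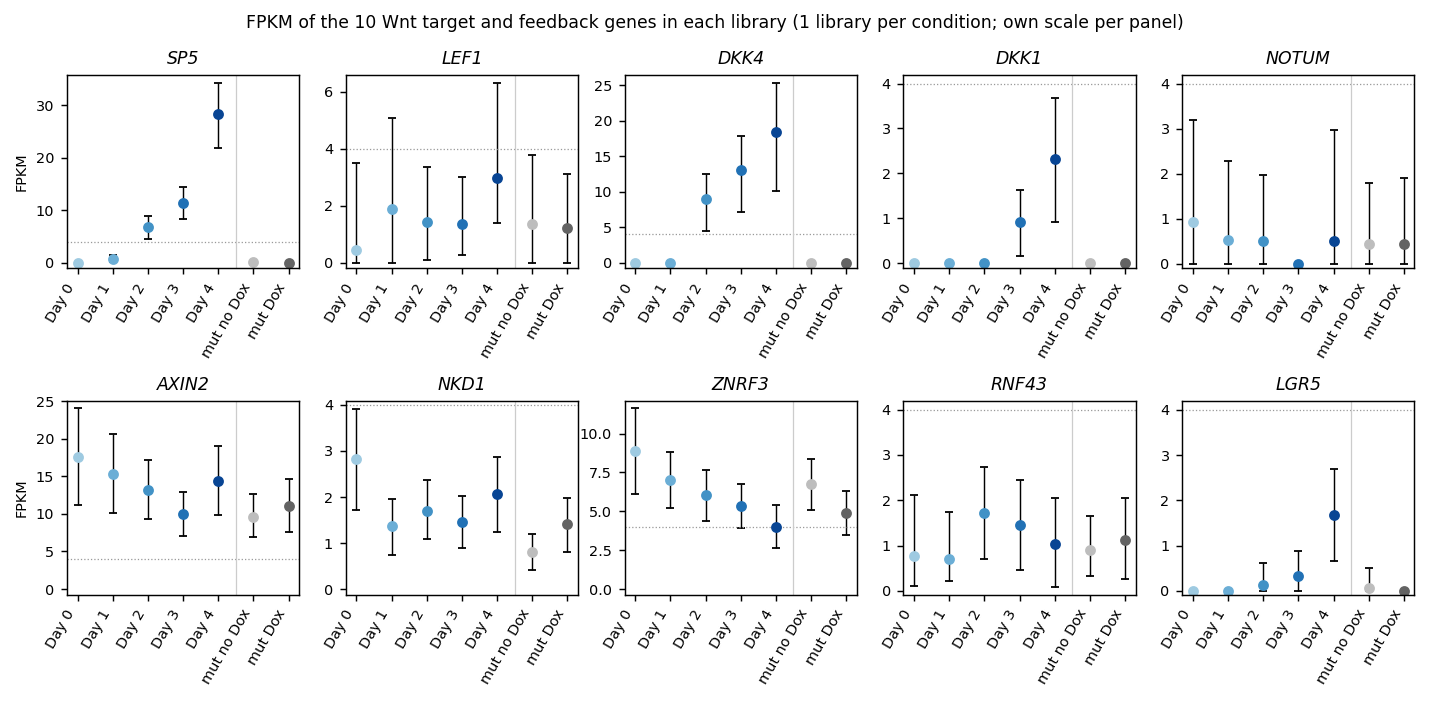
FPKM of each of the 10 genes in the 7 libraries (1 library per condition), each panel with its own scale starting near 0. Points are FPKM, vertical lines are Cufflinks 95% intervals, the dotted line marks 4 FPKM and the grey vertical line separates the JMJD3c-hESCs (left) from the JMJD3c mut-hESCs (right). SP5 climbs to 28.2 FPKM and DKK4 to 18.4 FPKM at Day 4, while ZNRF3 goes down from 8.89 to 4.00 FPKM and AXIN2 stays between 9.97 and 17.6 FPKM in these cells.

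Among the secreted inhibitors, DKK4 was upregulated and DKK1 was above 0 only in the last 2 days. DKK4, which binds LRP co-receptors (ENSG00000104371, chromosome 8, 42231586 to 42234750, minus strand), was listed at 0 FPKM at Days 0 and 1 and in both libraries of the mutant line. Days 2, 3 and 4 gave 8.98, 13.03 and 18.4 FPKM, the last with an interval of 10.1 to 25.2 FPKM. The intervals of Days 2, 3 and 4 overlapped, so their order is not resolved. These values were 20, 31 and 31 reads, so Days 3 and 4 had equal reads in libraries of 3440000 and 2430000 reads. DKK4 is short, and 3 reads at Day 0 would have been 2.46 FPKM. DKK4 at Day 4 was 7.47 times that floor, again without the counting error of Day 4.

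DKK1, of the same family (ENSG00000107984, chromosome 10, 54074056 to 54077417, plus strand), was listed at 0 FPKM in the 3 libraries up to Day 2 and in the mutant line with and without Dox. It was at 0.915 FPKM at Day 3 (5 reads) and at 2.33 FPKM at Day 4 (9 reads), under the cutoff of 4 FPKM. The Day 4 interval, 0.917 to 3.67 FPKM, held the 1.07 FPKM that 3 reads would have given at Day 0. In the deeper mutant libraries 3 reads would have been 0.515 FPKM without Dox and 0.591 FPKM with Dox, both under that interval. PRKG1-AS1, on the opposite strand, overlaps DKK1 exons.

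NOTUM, an enzyme that inactivates Wnt proteins by removing their lipid (ENSG00000185269, chromosome 17, 79910388 to 79919716, minus strand), was at 0.920 FPKM at Day 0. It was at 0.530, 0.509, 0 and 0.517 FPKM at Days 1 to 4, and at 0.447 and 0.441 FPKM in the mutant line without and with Dox. All 7 values were under 1 FPKM, and every interval above 0 began at 0. No difference in NOTUM was detectable at this depth. Together, DKK1, DKK4 and NOTUM summed to 0.920 FPKM at Day 0 and 21.2 FPKM at Day 4.

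Neither inhibitor inside the cell was called. AXIN2, a scaffold of the destruction complex and a common readout of the pathway (ENSG00000168646, chromosome 17, 63524681 to 63557765, minus strand), was at 17.6 FPKM at Day 0. It was at 15.3, 13.2, 9.97 and 14.4 FPKM at Days 1 to 4, and at 9.64 and 11.1 FPKM in the mutant line without and with Dox. All 4 Dox days were below Day 0, yet Day 4 was above both libraries of the mutant line, and the intervals of Day 4 (9.83 to 19.0 FPKM) and Day 0 (11.2 to 24.0 FPKM) overlapped. The intervals of all 7 libraries overlapped. An unnamed gene on the same strand, ENSG00000266076, shares up to 931 bases of exon with AXIN2 and has no entry in the files.

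NKD1, which binds Dishevelled (ENSG00000140807, chromosome 16, 50582241 to 50670647, plus strand), had 2.82 FPKM before Dox. Days 1 to 4 gave 1.37, 1.70, 1.46 and 2.06 FPKM. The mutant line had 0.807 FPKM without Dox and 1.42 FPKM with Dox. As with AXIN2, the 4 Dox days were below Day 0 and above the untreated mutant line. The Day 4 interval (1.25 to 2.86 FPKM) overlapped that of Day 0 (1.71 to 3.91 FPKM) and was apart from that of the untreated mutant line (0.415 to 1.19 FPKM).

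Of the genes that set receptor turnover, ZNRF3 was downregulated. ZNRF3, a membrane ubiquitin ligase that removes Frizzled receptors from the cell surface (ENSG00000183579, chromosome 22, 29279580 to 29453475, plus strand), was at 8.89 FPKM at Day 0. It was at 7.00, 6.03, 5.32 and 4.00 FPKM at Days 1 to 4, and at 6.75 and 4.89 FPKM in the mutant line without and with Dox. Each day was lower than the one before, but the intervals of consecutive days overlapped. Day 4 (2.61 to 5.38 FPKM) was apart from Day 0 (6.11 to 11.7 FPKM), at a ratio of 0.450 and a log2 fold change of -0.98. Against the untreated mutant line the ratio was 0.593 and against the Dox-treated mutant line 0.817, and ZNRF3 was called in neither. In the mutant line itself, the ratio with Dox to without Dox was 0.725, with overlapping intervals.

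RNF43, the related ubiquitin ligase (ENSG00000108375, chromosome 17, 56429861 to 56494943, minus strand), was at 0.766 FPKM at Day 0. It was at 0.698, 1.71, 1.46 and 1.03 FPKM at Days 1 to 4, and at 0.895 and 1.13 FPKM in the mutant line without and with Dox. The intervals of all of these libraries overlapped. ENSG00000285897, on the same strand and without an entry of its own, shares up to 2208 bases of exon with RNF43.

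LGR5, a receptor for R-spondins, the proteins that draw RNF43 and ZNRF3 off the surface (ENSG00000139292, chromosome 12, 71833550 to 71980090, plus strand), was listed at 0 FPKM at Days 0 and 1. It was at 0.126, 0.330 and 1.67 FPKM at Days 2, 3 and 4, and at 0.0618 and 0 FPKM in the mutant line without and with Dox. Day 4 was the highest library. Its interval (0.651 to 2.69 FPKM) lay above the 0.389 FPKM that 3 reads on the longest transcript would have given at Day 0, above the interval of the untreated mutant line (0 to 0.513 FPKM), and under the cutoff of 4 FPKM. For the other receptor of this kind in the files with more than 4 FPKM, LGR4, the values went the other way. It went from 34.7 FPKM at Day 0 to 16.2 FPKM at Day 4, which was a downregulated call with the intervals apart. The mutant line had 38.4 and 24.6 FPKM of LGR4 without and with Dox. Day 4 was called lower against the untreated mutant library and not against the Dox-treated one.

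The order of the 10 genes by FPKM, a scale per length of exon, differed between the libraries. At Day 0, AXIN2 (17.6 FPKM) and ZNRF3 (8.89 FPKM) led with overlapping intervals, NKD1 came next with an interval apart from that of ZNRF3, and 4 genes were listed at 0. At Day 4, SP5 (28.2 FPKM), DKK4 (18.4 FPKM) and AXIN2 (14.4 FPKM) led, each overlapping the next in its interval, and AXIN2 was apart from ZNRF3. From ZNRF3 down to NOTUM, each gene at Day 4 overlapped the next. In both libraries of the mutant line, AXIN2 and ZNRF3 were again the 2 highest. The 10 genes summed to 31.4 FPKM at Day 0 and 75.6 FPKM at Day 4, of which SP5 and DKK4 made up 46.6 FPKM. The other 8 summed to 31.4 and 29.0 FPKM. In the mutant line the sum of the 10 was 20.1 FPKM without Dox and 20.2 FPKM with Dox.

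The time course was read day by day against Day 0, and these comparisons share that 1 library. At Day 1, no gene of the 10 was called and 2 were above 4 FPKM in either library, with a background of 3.48% upregulated and 3.27% downregulated, and the median log2 fold change was -0.03 for the 10 genes and -0.04 for all genes above 4 FPKM. At Day 2, SP5 and DKK4 were upregulated and none of the 10 was downregulated (background 3.90% and 4.24%). At Day 3, again SP5 and DKK4 were upregulated and none downregulated (background 4.73% and 4.48%). The median of the 10 genes was 0.09 at Day 2 and 0.44 at Day 3. The number of genes above their own Day 0 value was 2, 5, 6 and 6 on the 4 Dox days in turn.

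The comparison with the mutant line set active against inactive JMJD3c after the same time on Dox. Line and mutation cannot be told apart in it, so whether the catalytic activity is needed was not tested. Between Day 4 and the Dox-treated mutant line, SP5 and DKK4 were again called higher and no gene lower (background 6.56% higher and 3.00% lower). Day 4 values were 55.1 times (SP5), 13.5 times (DKK4) and 3.93 times (DKK1) the floor of 3 reads in the Dox-treated mutant library. The counting error of Day 4 is left out of these folds, and DKK1 was below 4 FPKM. Of the 10 genes, 8 were above and 2 (RNF43 and ZNRF3) below the Dox-treated mutant line, and the median log2 difference was 0.60, with -0.02 over all genes above 4 FPKM. In that library 4 genes (SP5, DKK1, DKK4 and LGR5) were listed at 0, so they could not lie below it. Of the 8 genes, only these 4 had intervals apart. No share of all genes that were higher is given here, so 8 of 10 cannot be read as unusual. Against the untreated mutant line, SP5 and DKK4 were called higher and no gene lower (background 7.04% and 3.90%), and the median was 0.75.

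**Figure D2:**
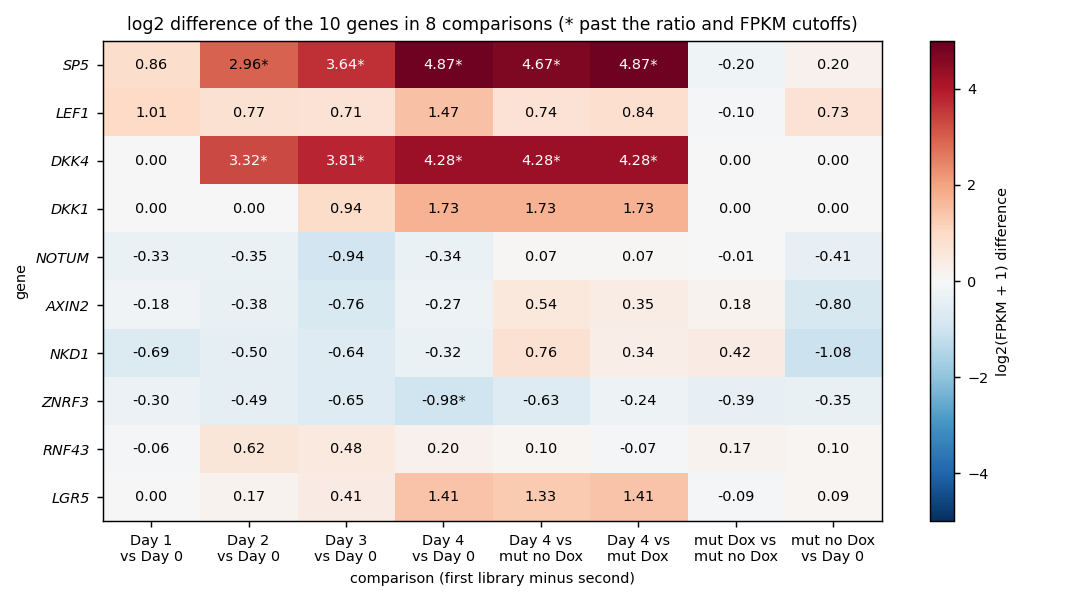
Differences in log2(FPKM + 1) for the 10 genes (rows) in 8 comparisons (columns), as the first library minus the second, with 1 library on each side. Red is higher and blue is lower, and an asterisk marks values past the ratio and FPKM cutoffs. SP5 and DKK4 carry asterisks at Days 2, 3 and 4 against Day 0 and at Day 4 against both mutant libraries, and ZNRF3 at Day 4 against Day 0 with -0.98.

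Within the mutant line, none of the 10 genes was called after 4 days of Dox, but AXIN2 and ZNRF3 were the only 2 above 4 FPKM, so the other 8 could not have been called. The background of that comparison was 1.24% upregulated and 1.53% downregulated, lower than in any comparison with Day 4. The median log2 difference of the 10 genes was -0.003 and that of all genes above 4 FPKM was 0.004. DKK1 and DKK4 were listed at 0 in both libraries, and the intervals of the other 8 genes overlapped. The largest of these differences in size was that of NKD1, 0.42 on the log2 scale. The difference in effect between the lines was not tested, since each arm is 1 library against 1.

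The untreated lines differed from each other before any Dox. No gene of the 10 was called between them, and 2 of the 10 exceeded 4 FPKM in either library. Of all genes above 4 FPKM in either library, 2.78% were higher and 7.00% lower in the untreated mutant line. NKD1 had 0.807 FPKM in the mutant line and 2.82 FPKM at Day 0, with intervals apart and below the cutoff of 4 FPKM. AXIN2 had a ratio of 0.549 between the same libraries, with overlapping intervals. For AXIN2, NKD1 and NOTUM the direction at Day 4 changed with the untreated library used, whereas SP5, DKK4, DKK1, LGR5, LEF1 and RNF43 were higher and ZNRF3 lower at Day 4 against each of them.

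The summed markers of primitive streak and mesoderm and of definitive endoderm rose over the days of Dox, as SP5 and DKK4 did. The 7 markers of primitive streak and mesoderm summed to 7.32, 10.9, 40.3, 76.5 and 118 FPKM from Day 0 to Day 4, and to 7.52 and 5.15 FPKM in the mutant line without and with Dox. The 6 markers of definitive endoderm summed to 1.11, 8.81, 26.8, 51.7 and 90.2 FPKM, and to 5.45 and 4.53 FPKM in the mutant line. SP5 and DKK4 together had 0, 0.819, 15.8, 24.5 and 46.6 FPKM from Day 0 to Day 4. At Day 4, 5 of the 7 streak markers and 6 of the 6 endoderm markers exceeded 1 FPKM, while at Day 0 it was 2 and 0. Those 5 streak markers were each higher at Day 4 than at Day 0. The remaining streak markers were lower, TBX6 at 0 against 1.56 FPKM and MESP1 at 0.379 against 0.519 FPKM. The part of such cells in the values of SP5 and DKK4 was not tested. The 5 neural markers, mainly NES, summed to 109 FPKM at Day 0 and 169 FPKM at Day 4. Their sum was also higher with Dox in the mutant line, at 86.6 FPKM without and 115.8 FPKM with Dox.

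**Figure D3:**
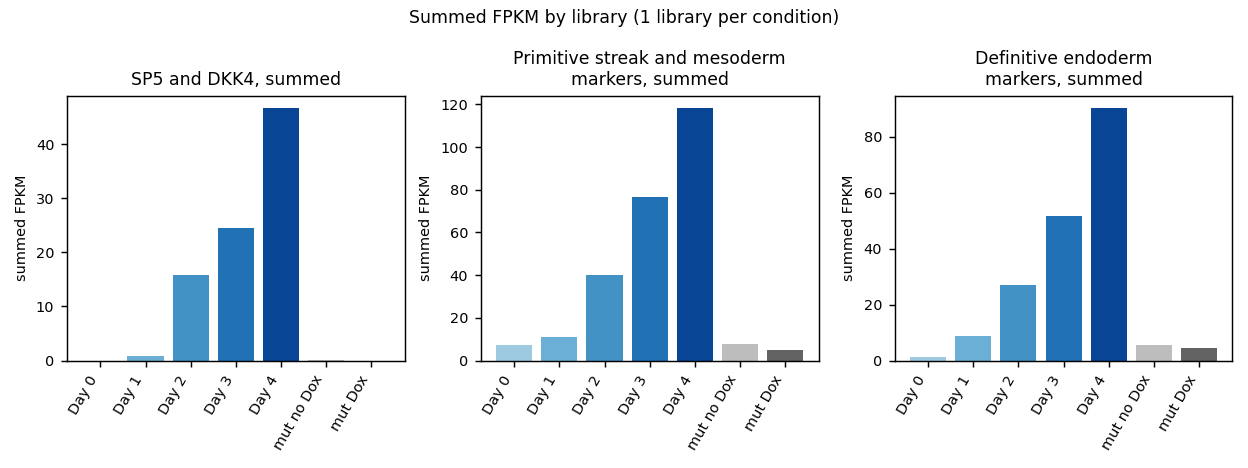
Summed FPKM in each library (1 library per condition) of SP5 and DKK4 (left), of 7 markers of primitive streak and mesoderm (middle) and of 6 markers of definitive endoderm (right). Bars start at 0, each panel has its own scale, blue bars are JMJD3c-hESCs and grey bars JMJD3c mut-hESCs. The 3 sums are highest at Day 4, at 46.6, 118 and 90.2 FPKM, and low in both grey bars.

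By the correlation of log2(FPKM + 1) over the 7 libraries, 5 of which are 1 time course, the gene most like SP5 among 10874 others was EOMES (Pearson's r = 0.996). EOMES, a T-box factor of the primitive streak, went from 0 FPKM at Day 0 to 38.2 FPKM at Day 4. KIAA1161, PPP1R3B, HAS2 (a hyaluronan synthase) and FLRT2 followed, with r from 0.992 to 0.994. The mean of the 10 genes was most like SZRD1 (r = 0.993), which was at 58.1 FPKM at Day 0 and 77.2 FPKM at Day 4, then SERPINB9, PPP1R15A, FLRT2 and TCF20 with r from 0.983 to 0.988. With so few libraries and a shared time course, such values are a description.

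The rest of the pathway was read from 97 genes in 7 lists, all found in the files. At Day 4 against Day 0, 59 of them exceeded 4 FPKM in either library, of which 11 were upregulated and 5 downregulated, with background shares of 5.87% and 7.56%. The downregulated calls are near that background. With intervals also apart, 8 were upregulated and 4 downregulated, with background shares of 2.52% and 2.74%. The lists were chosen with earlier results of these data known, so the upregulated count cannot be read as an enrichment. The median log2 fold change of the 97 was 0.09, with -0.06 over all genes above 4 FPKM. No Wnt ligand among 19 was called, and 2 of them exceeded 4 FPKM in either library. Of 15 receptors, FZD2, a Frizzled receptor, rose from 5.37 to 11.8 FPKM and RYK, a Wnt co-receptor, rose from 20.1 to 43.5 FPKM, both with intervals apart. The mutant line had 35.3 and 36.5 FPKM of RYK without and with Dox, and 7.20 and 11.2 FPKM of FZD2, and neither gene was called at Day 4 against the Dox-treated mutant line. Of 6 R-spondins and their receptors, LGR4 was the call described above. None of the 12 nuclear factors was called.

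Of 14 other secreted or surface inhibitors, 3 were upregulated and 1 was downregulated at Day 4 against Day 0. Against the mutant line, 1 was higher at Day 4 with the untreated library as reference and 2 with the Dox-treated one, and 0 were lower with either. CER1, a secreted antagonist of Nodal, BMP and Wnt proteins, was listed at 0 before Dox and gave 1.85, 34.0, 84.1 and 133.7 FPKM on the 4 Dox days, with 1.62 and 0.924 FPKM in the mutant line. SFRP1, which binds Wnt proteins, rose from 21.7 to 52.8 FPKM, and the mutant line had 26.8 and 30.2 FPKM. SFRP5 of the same family fell from 4.13 to 0.502 FPKM, and the mutant line had 1.34 and 0.955 FPKM. Neither was called at Day 4 against a mutant library. APCDD1, a membrane inhibitor, was called at 7.54 against 3.14 FPKM with overlapping intervals. In the list of the destruction complex and signal transduction, WLS, which carries Wnt proteins to the surface, was the 1 call of 15, at 7.82 against 1.13 FPKM with overlapping intervals.

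Of 16 other genes known as Wnt targets, 5 were upregulated and 3 downregulated. T, the brachyury factor of the primitive streak, rose from 0.804 to 23.6 FPKM and was at 0.133 and 0.892 FPKM in the mutant line. TBX3, a T-box factor, rose from 1.96 to 5.71 FPKM, and MSX1, a homeobox factor, was listed at 0 at Day 0 and at 4.02 FPKM at Day 4. MSX2 was called at 4.63 against 1.35 FPKM with overlapping intervals. The remaining calls were named after their values were seen: JUN at 24.7 against 11.4 FPKM upwards, and MYC at 22.4 against 53.3, SP8 at 15.97 against 32.4 and FGF8 at 5.84 against 13.8 FPKM downwards. Of these 16 genes, 13 exceeded 4 FPKM in either library, with the same background of 5.87% and 7.56%. Against the Dox-treated mutant line, 5 were called higher and 0 lower at Day 4.

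**Figure D4:**
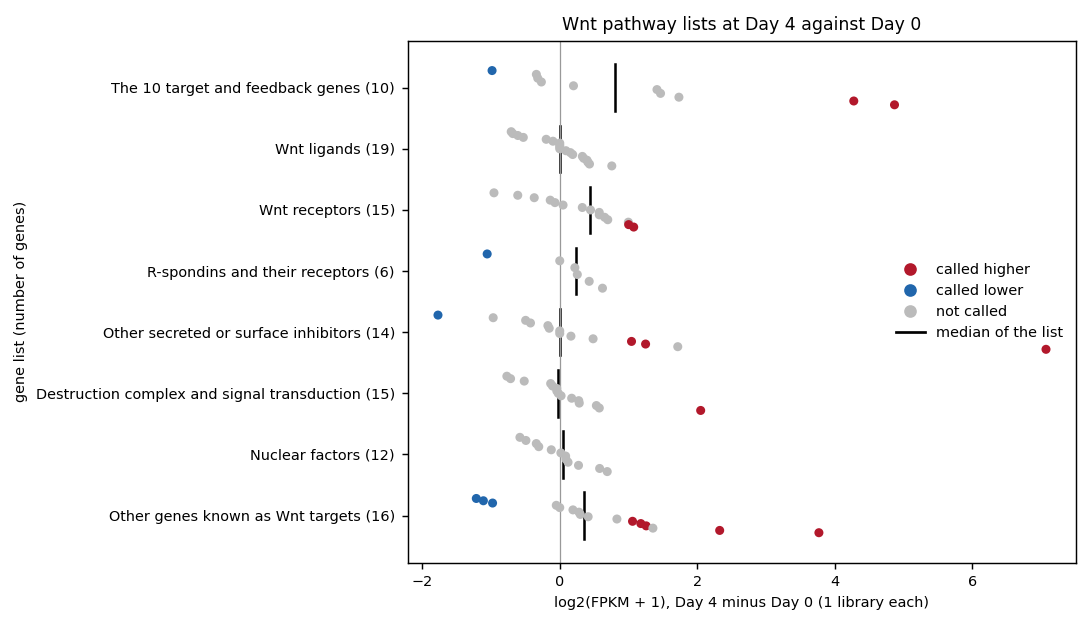
Difference in log2(FPKM + 1) between Day 4 and Day 0 (horizontal axis, 1 library each) for the 10 genes and for 97 other Wnt pathway genes in 7 lists. Each point is a gene, red if upregulated, blue if downregulated and grey if not called, and the black bar is the median of the list. The 10 genes have a median of 0.81, and CER1 at 7.07 is the farthest point to the right.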

How the data were processed

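RNA-seq of poly(A) RNA was analysed for 7 libraries, 1 per condition, grouped by the sample titles. Per the labels, the libraries were made with a directional kit, and the authors sequenced 150-base single-end reads on a MiSeq, mapped them to hg19 with TopHat 2.0.13 and calculated FPKM with Cufflinks 2.1.1. The deposited FPKM values come with their 95% bounds. The annotation and the strand setting are not given in the sources used here, so reads of overlapping antisense genes may be included. CASAVA 1.4 is also listed in the submitters' processing notes.

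The members and lists were chosen with earlier results of these data known. Named are the 10 genes, KDM6B, at most 4 called genes per list with the largest ratio at Day 4, and the 5 genes most like SP5 and most like the mean of the 10. From the FPKM values, ratios, calls and log2 fold changes (pseudocount of 1 FPKM) were calculated. No test was made, since each comparison sets 1 library against 1. A trend over the days of Dox was not tested. The background was the genes on chromosomes above 4 FPKM in either library, without failed entries.

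Depth was estimated from 634 genes with 1 transcript, whose low values (FPKM times length less 199 bases) fell within 0.15 of a whole read in 55.7% to 74.7% of cases per library. The settings of this estimate were chosen after the values were seen, and an estimate of a multiple of it fits such steps as well. Floors of 3 reads, and the Cufflinks bounds, cover counting error within a library only. Floors are given as folds for SP5, DKK1 and DKK4, whose values came out whole below 20 reads. Genes listed at 0 have bounds of 0 to 0. The scripts, in Python 3.11.15 with numpy 2.4.6, pandas 2.3.3 and matplotlib 3.10.9, were tested on simulated data. Promoters are from RefSeq (GRCh38.p14), gene positions from the hg19 files, and exons from GENCODE release 44 lifted to GRCh37. The alternatives changed the FPKM cutoff, pseudocount, scaling, shared names, intervals, reference and treated library.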

Additional observations from a re-analysis of the deposited data

Results flagged for a closer look

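For 4 of the 10 genes, all 4 Dox days lay on one side of Day 0 in the JMJD3c-hESCs while the Dox-treated library of the mutant line lay on the other side of its own untreated library. The log2 fold change at Day 4 against Day 0 minus that with Dox in the mutant line was 5.07 for SP5, 1.57 for LEF1, -0.45 for AXIN2 and -0.74 for NKD1. The first 2 were higher on every Dox day and lower with Dox in the mutant line, and the last 2 were the reverse. These differences between the lines were not tested, because each rests on 4 single libraries. The 4 Dox days share the 1 Day 0 library. No share of all genes that meet this rule is given here, so 4 of 10 cannot be read as unusual. For SP5, the lower value in the mutant line is a step from 1 read to 0 reads. For LEF1, AXIN2 and NKD1, the intervals of Day 4 and Day 0 overlapped, as did those of both mutant libraries.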

How the results depend on the processing

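No paired analysis was possible because each condition has 1 library, and no library could be left out for the same reason. With a cutoff of 1 FPKM or none, the upregulated calls at Day 4 against Day 0 went from 2 to 5, and those against the Dox-treated mutant line also from 2 to 5. With a cutoff of 1 FPKM and intervals apart, an alternative added after the data were seen, both were 4. The downregulated call at Day 4, ZNRF3, became 0 with the untreated mutant line as the reference or with Day 3 as the treated library. In the mutant line, dropping the cutoff gave 2 genes lower (SP5 and LGR5, both with a value of 0 after Dox). Of the 97 other pathway genes, the upregulated calls went from 11 to 26 without a cutoff and to 7 at Day 3, and the downregulated calls from 5 to 9 at 1 FPKM, 11 without a cutoff, and 3 both at Day 3 and against the untreated mutant line. The other counts stayed within 1.5 times, both scalings included. The 10-gene median (log2) at Day 4 ranged from 0.29 (pseudocount of 4 FPKM) to 1.45 (0.1 FPKM), and in the mutant line from -0.007 to -0.001. Of 70 values of single genes under alternatives, 58 lay within the range that both Cufflinks intervals allow, and 3 had the opposite sign, AXIN2 (0.54), NKD1 (0.76) and NOTUM (0.07), all with the untreated mutant line as the reference. The cause of these changes was not tested. Depth limits the low genes: for SP5 at Day 0, 3 reads are 0.929 FPKM.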

Other observations

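The following values were picked after they were seen. In the mutant line, WNT5A, a ligand mostly of non-canonical signaling, passed the cutoffs downwards with Dox, at 2.55 against 6.46 FPKM with intervals apart. Between the untreated lines, 11 of the 12 nuclear factors of the pathway were lower in the mutant line than at Day 0, with a median log2 difference of -0.43 against -0.05 over all genes above 4 FPKM, and 1 of them passed the cutoffs. Between Day 4 and the Dox-treated mutant line, WNT3, the ligand known for starting the primitive streak in the mouse, was at 10.9 against 2.77 FPKM with intervals apart. WNT3 was called higher against the untreated mutant line as well, which had 5.27 FPKM, with intervals apart. It was higher at Day 4 than at Day 0 as well, with a log2 fold change of 0.76, but was not called there.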
